A study of Rattus norvegicus with 4 samples.

Results

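The genes described here are those of the proteasome, its regulators and its assembly factors in NR8383 cells. NR8383 is an established line of rat alveolar macrophages, which traces back to cells washed from the lung of a normal rat. They were chosen by name: every probe that was no control and whose accession led to a rat gene symbol starting with Psma, Psmb, Psmc, Psmd, Psme, Psmf or Psmg was taken. That gave 47 genes, measured by 50 probes, out of 16581 genes with a named probe on the array. The study exposed the cells to NM403, a carbon nanotube material, for 4 h at 0.8 cm2 of material per cm2 of culture, and each of the 4 arrays analysed here holds RNA from 1 of 4 cultures labelled as biological replicates. These cultures form 1 group; unexposed cultures were not analysed here, so the values say what exposed cells contained and how the cultures differed, and nothing about a response to NM403. All cultures shared the line, its 20 passages and medium with 15% serum, and a cell line stands for the macrophages of no particular animal.

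The proteasome is the protease that breaks down proteins tagged with ubiquitin. Its core particle is a barrel of alpha and beta subunits, in which 3 of the standard beta subunits cut peptide bonds. A cap of ATPase and non-ATPase subunits receives the tagged protein, removes the ubiquitin and feeds the unfolded chain into the barrel. In cells exposed to interferon, and constantly in many immune cells, the cutting subunits are replaced by the inducible subunits encoded by Psmb8, Psmb9 and Psmb10, and the activator made of the products of Psme1 and Psme2 can dock in place of the cap. This immunoproteasome yields peptides that suit class I antigen presentation, a task that macrophages share with most cells.

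All 4 arrays lay on 1 slide. Between 45.9% (replicate 4) and 50.8% (replicate 1) of spots stood well above background, and 0 were saturated. The scanner software marked replicate 4 for evaluation in its own quality check. Of the 14 macrophage markers looked for, 12 were detected on all 4 arrays, while Marco and Adgre1 were detected on none. Of the markers of other cells with a named probe, 1 of 8 epithelial, 1 of 5 lymphocyte and 3 of 7 fibroblast and endothelial genes were detected on all arrays. Sftpc, the surfactant protein C gene of alveolar epithelium, was detected on 1 array. In RNA from a whole culture, fewer cells that hold a transcript and less of it per cell cannot be told apart. Precision is limited by there being 4 arrays.

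A level is a log2 signal from which the array's own 75th percentile, over probes detected on every array, was subtracted. A level compares 1 probe across cultures. Probes are also sorted into 4 equal classes of signal below, which describe how bright a probe is and not how abundant its transcript is. An SD is over the 4 cultures (n = 4 throughout), and a range is the highest culture over the lowest, as a fold. The arrays read alike in pairs: of 7935 genes detected on all arrays, 1.16% were over 1.5-fold higher and 0.744% lower on replicate 3 than on replicate 1, and 1.63% higher and 2.34% lower on replicate 4 than on replicate 2. From replicate 1 to 2, 7.47% were higher and 17.5% lower. The labels call the 4 cultures biological replicates and name no batch, so n = 4 rests on the labels.

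All but 1 of the proteasome genes were detected. Of the 47 genes, 46 were well above background on all 4 arrays. Among them were all standard core subunits, all 17 cap subunits whose symbols fit the naming rule and all 5 immunoproteasome genes. The exception was Psma8, which encodes the alpha subunit of the testis form of the core. Its spots were not well above background on any of the arrays, with levels of -7.76, -7.72, -6.47 and -7.81 for replicates 1 to 4. Psmb11, the thymus form of a catalytic subunit, and the assembly factor genes Psmg1 and Psmg3 had no named probe. Of the 46 detected genes, 33 had a probe in the brightest of 4 equal classes of the genes detected on all arrays.

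The 5 immunoproteasome genes were detected in every culture and all had their highest levels on replicates 2 and 4, as did 47.3% of all detected genes and 70.3% of those in the brightest class, where all 5 lie. Psmb8, which encodes the inducible subunit that takes the place of the Psmb5 product, read 2.43, 3.00, 2.39 and 2.96 on replicates 1 to 4, a mean of 2.70 ± 0.33 (SD, n = 4). Psmb9, whose product replaces that of Psmb6, read 1.09, 1.84, 1.14 and 1.89 (mean 1.49 ± 0.43). Psmb10, whose product replaces that of Psmb7, read 1.44, 2.31, 1.46 and 2.31 (mean 1.88 ± 0.50). In all 3 genes replicates 2 and 4 were high, replicates 1 and 3 were low, and the values of replicates 2 and 4 did not overlap those of replicates 1 and 3. Psme1, which encodes the alpha subunit of the PA28 activator, read 2.45, 3.14, 2.50 and 3.23 (mean 2.83 ± 0.41). Psme2, the beta subunit of the same ring, read 3.08, 3.69, 3.16 and 3.73 (mean 3.42 ± 0.34). Both parts of the activator, like the catalytic subunits, were thus higher on replicates 2 and 4 than on replicates 1 and 3. Ranges of the 5 genes ran from 1.53-fold for Psmb8 to 1.83-fold for Psmb10, and all 5 exceeded 1.5-fold, which 37.9% of all 7935 genes detected on all arrays did.

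**Figure D1:**
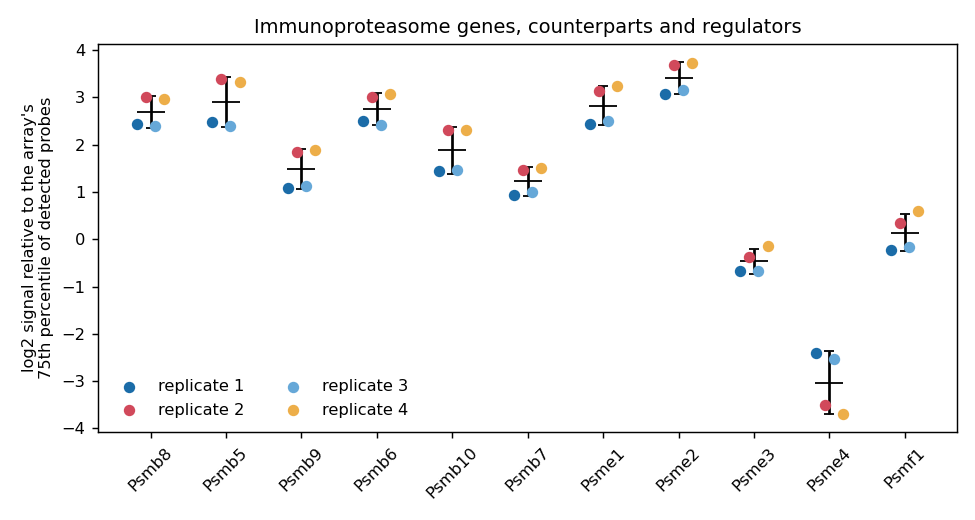
Levels of the immunoproteasome genes, their standard counterparts, other activators and the inhibitor on each array, as log2 signal relative to the array's 75th percentile of detected probes; points are the 4 cultures, horizontal bars the mean and error bars 1 SD. Within each gene except Psme4, replicates 2 and 4 lie above replicates 1 and 3; heights of different genes are not comparable.

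Interferon regulatory factors bind a promoter element of paired GAAA blocks, and the sequences below show where those letters stand at the immunoproteasome genes. The letters GAAA, any 2 bases and GAAA again were searched on both strands of RefSeq promoter windows of rat assembly GRCr8, from 250 bases before to 50 bases after each gene's start. They were in 3.92% of all 33469 windows and in 7 of the 43 windows of measured proteasome genes (16.3%), among them 3 of the 5 immunoproteasome genes. The windows below run 5′ to 3′ along the gene's strand, with the matched letters in capitals; the match at Psmb8 reads on the opposite strand.
Psmb8, chr20:4657016-4657045, minus strand, match starting 4 bases before the gene's start: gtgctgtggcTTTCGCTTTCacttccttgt
Psmb10, chr19:50743290-50743319, minus strand, 17 bases before: agtggggggtGAAAGCGAAAgtaggaagcg
Psmb10, chr19:50743346-50743375, minus strand, 73 bases before: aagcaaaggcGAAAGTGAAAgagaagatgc
Psme2, chr15:33052785-33052814, minus strand, 53 bases before: cctggagagtGAAAGCGAAAgctggggctg
The matched letters are identical at Psme2 and at the nearer match of Psmb10, and those at Psmb8 are the same read from the other strand. No match was in the windows of Psmb9 and Psme1, which says only that these letters are not there. A match is a description of the sequence and no measurement of binding. Psmb9 starts 457 bases from Tap1, the peptide transporter gene, which lies on the opposite strand. Tap1 itself read -2.62, -2.35, -2.51 and -2.23, a narrower range (1.32-fold) than the 1.73-fold of Psmb9.

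The standard catalytic subunits showed the same order of cultures as their inducible counterparts. Psmb5, the chymotrypsin-like subunit, read 2.49, 3.40, 2.40 and 3.33 (mean 2.90 ± 0.53), with a 2.00-fold range that was the widest of the beta subunits. Psmb6, the caspase-like subunit, read 2.50, 3.01, 2.42 and 3.08 (mean 2.75 ± 0.34). Its other probe read 2.30, 2.92, 2.36 and 3.01, so both probes placed the cultures in the same pairs. Psmb7, the trypsin-like subunit, read 0.93, 1.47, 0.99 and 1.52 (mean 1.23 ± 0.31). All 7 standard beta genes had their highest levels on replicates 2 and 4, with no overlap with replicates 1 and 3. So did 47.3% of all detected genes, and 70.3% of those in the brightest class, where all 7 lie. Among the subunits that do not cut, Psmb3 read 3.08, 3.92, 3.14 and 3.98 (mean 3.53 ± 0.48) and Psmb1 read 0.88, 1.38, 0.93 and 1.41 (mean 1.15 ± 0.28). Psmb2 and Psmb4 lay between these, with SDs of 0.32 and 0.42.

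Several of these genes carry, near their start, letters of the antioxidant response element, through which the transcription factors NRF1 and NRF2 act on genes of protein turnover and oxidant defence. The letters TGAC, any 3 bases and GC, on either strand, were in 12.1% of all 33469 windows and in 8 of the 43 windows of measured proteasome genes (18.6%). None of these 8 windows also held a match of the interferon element. The windows of the catalytic subunit genes Psmb5 and Psmb6 are shown with those of Psma3 and Psme4, because the first 2 were highest on replicates 2 and 4 and the last 2 on replicates 1 and 3.
Psmb5, chr15:32047421-32047449, minus strand, 60 bases before the gene's start: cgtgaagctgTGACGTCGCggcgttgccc
Psmb6, chr10:55737854-55737882, plus strand, 24 bases before: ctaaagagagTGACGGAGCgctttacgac
Psma3, chr6:95219727-95219755, plus strand, 12 bases before, opposite strand: tctgtggcctGCCGGGTCAgcaccatgag
Psme4, chr14:108706578-108706606, plus strand, 55 bases before, opposite strand: ggagaaagccGCTGGGTCAcctcctcgcc
These windows were picked by their order of cultures, so they do not show how common each order is among the 8 genes. The letters also stood at Psmb2, Psmd3 and Psmd9, with replicates 2 and 4 highest, and at Psmd1, with replicates 2 and 3 highest. Over all detected genes these orders were taken by 47.3% and 3.13%. Psmb7 had no match in its window, and neither did any of the 5 immunoproteasome genes. As 12.1% of all windows held one, its absence from so few genes does not mark them off.

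The alpha subunits, which form the gated outer rings of the barrel, varied less than the beta subunits and did not share 1 order. Their median SD was 0.16, against 0.34 for the 7 beta genes and 0.23 for all detected genes, and it was below that of the beta genes under every alternative tried. Psma7 was the only alpha gene besides Psma3 with a range above 1.5-fold; it read 1.98, 2.53, 2.04 and 2.69 (mean 2.31 ± 0.35). Psma2 had the narrowest spread under this scaling, at 0.05, -0.17, 0.00 and -0.01 (mean -0.03 ± 0.10), and its SD was 0.0337 without replicate 2. Psma3 went the other way, with -1.34, -2.53, -1.40 and -2.67 (mean -1.99 ± 0.71), which is a 2.51-fold range with replicates 1 and 3 high. Psma1, Psma5 and Psma6 had replicates 2 and 4 highest within ranges of 1.24-fold to 1.27-fold. Psma4 had replicates 1 and 3 highest within 1.22-fold.

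**Figure D2:**
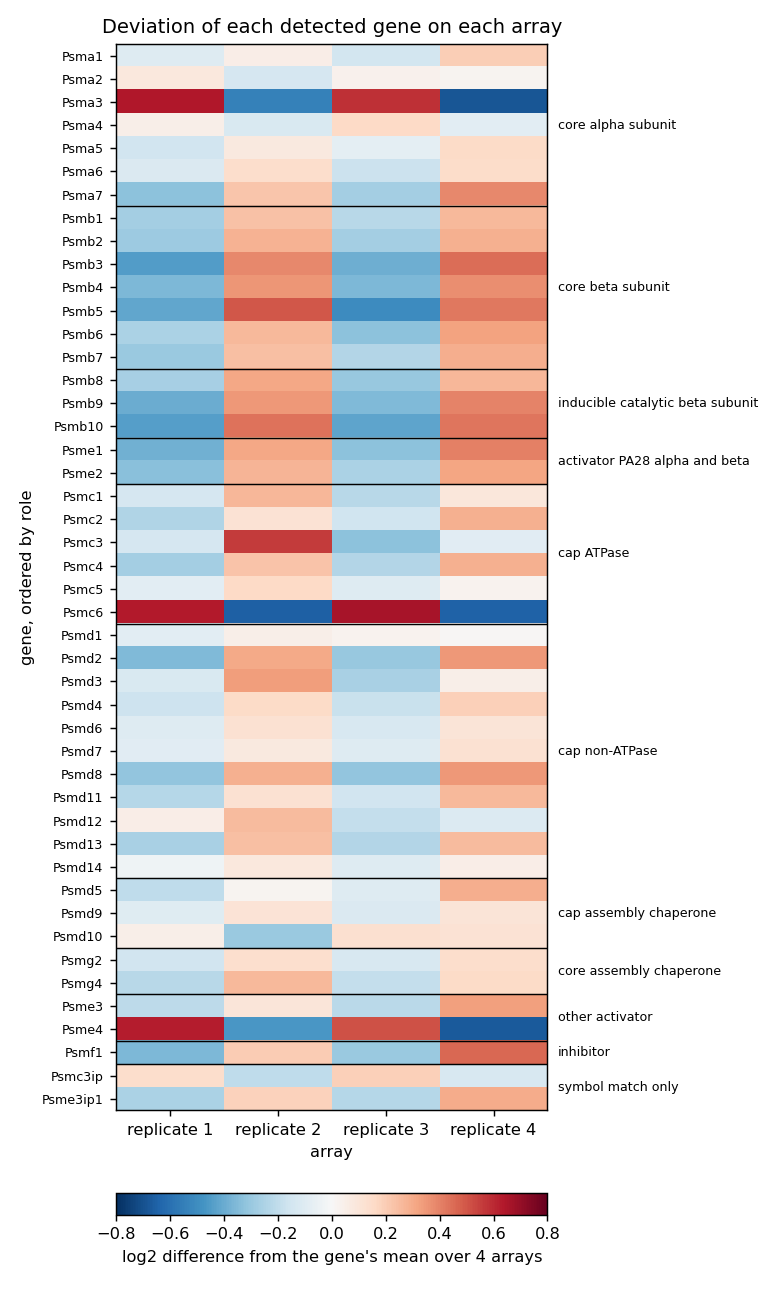
Deviation of each of the 46 detected genes from its own mean over the 4 arrays (log2, colour scale from -0.8 to 0.8), with genes in rows grouped by role and arrays in columns. Most rows are red on replicates 2 and 4 and blue on replicates 1 and 3; Psma3, Psmc6 and Psme4 show the opposite colours strongly, and Psma4 and Psmc3ip weakly.

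The inducible genes differed from the standard core as a whole, and hardly from its beta subunits. To set groups of genes side by side without ranking probes, the mean over 1 group was subtracted from that of the other on each array and centred on its own mean over the arrays, a quantity that scaling an array by a constant does not change. The mean of the 5 immunoproteasome genes minus that of the 14 standard core genes came to -0.20, 0.20, -0.18 and 0.18 for replicates 1 to 4. Without Psma3, left out after its values were seen, this difference was smaller, at -0.14, 0.14, -0.12 and 0.11. Against the 7 beta genes alone it was -0.03, 0.01, 0.00 and 0.02, with an SD of 0.0214 over the arrays. Against the 7 alpha genes it was -0.37, 0.38, -0.35 and 0.34, with an SD of 0.417, and the SD was 0.302 with Psma3 left out, a choice made after its values were seen. The contrast between beta and alpha genes was of similar size, at -0.34, 0.37, -0.35 and 0.32, and at -0.24, 0.28, -0.25 and 0.21 without Psma3. Within the matched catalytic subunits the directions differed. Psmb8 minus Psmb5 deviated by 0.15, -0.19, 0.20 and -0.16, so that the standard gene swung more widely than the inducible gene. Psmb9 minus Psmb6 deviated by -0.14, 0.09, -0.02 and 0.08, and Psmb10 minus Psmb7 by -0.14, 0.19, -0.19 and 0.14. In those 2 pairs of genes the inducible member swung more widely. With 1 group and no control, none of these differences was tested.

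**Figure D3:**
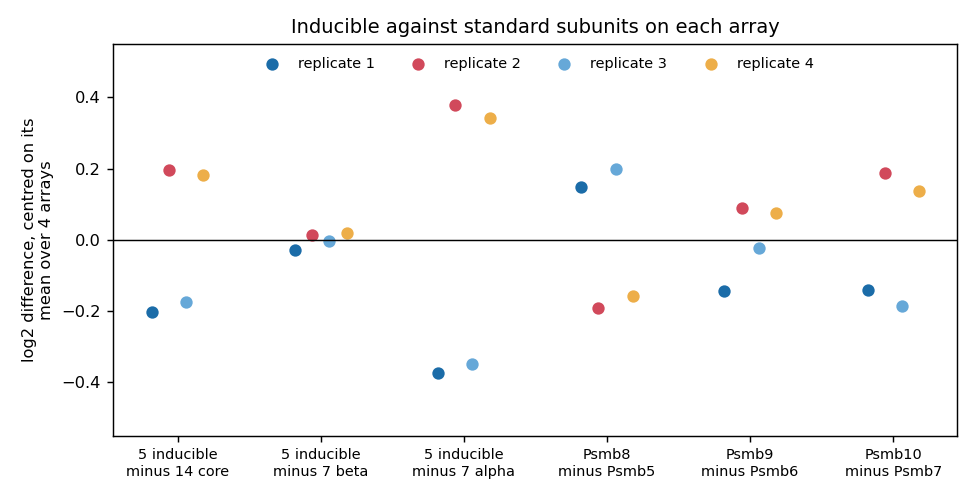
Differences between inducible and standard subunits on each array, in log2 units centred on the mean over the 4 arrays; each point is 1 culture. The differences to the 7 beta genes lie between -0.03 and 0.02, whereas those to the 7 alpha genes lie between -0.37 and 0.38.

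The ATPases of the cap, which unfold the tagged protein, included Psmc6, which had the largest SD of the 46 detected genes under this scaling. With the 75th percentile over all probes its SD was 0.535 and Psmb5 had the largest, at 0.747, and with the array median these were 0.627 and 0.655. Psmc6 read -1.92, -3.20, -1.90 and -3.20 (mean -2.55 ± 0.75), a 2.48-fold range with replicates 1 and 3 high. The remaining 5 ATPase genes had replicates 2 and 4 highest, as did 47.3% of all detected genes. In the brightest class, where these 5 lie, the share was 70.3%. Psmc3 read 1.60, 2.30, 1.41 and 1.65 (mean 1.74 ± 0.39), so replicate 2 stood above the other cultures and replicate 4 was close to replicate 1. Without replicate 2 its SD was 0.128. Psmc5 had the smallest SD of the ATPases under this scaling, at 4.01, 4.25, 3.99 and 4.12 (mean 4.09 ± 0.12, with an SD of 0.0737 without replicate 2). Psmc1 had 2 detected probes, which read between 3.12 and 3.61 and between 0.85 and 1.28, with SDs of 0.22 and 0.23; both were highest on replicates 2 and 4.

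Of the 11 non-ATPase genes that fit the naming rule, 9 had replicates 2 and 4 highest, as did 47.3% of all detected genes. In the brightest class, where all of these genes but Psmd3 lie, the share was 70.3%. A range above 1.5-fold was found in 3 of them (37.9% of all detected genes) and one above 2-fold in 0 (13.6%). Their median range was 1.36-fold, beside 1.40-fold over all detected genes. Sem1, a cap subunit outside the naming rule, was not counted here and had replicates 1 and 3 highest. Psmd2, which encodes the scaffold subunit that docks ubiquitin receptors, read 2.91, 3.56, 2.96 and 3.61 (mean 3.26 ± 0.38). Psmd8 read 0.33, 0.94, 0.33 and 1.0 (mean 0.65 ± 0.37). Psmd1, the other large scaffold of the cap, read 3.65, 3.78, 3.76 and 3.74 (mean 3.73 ± 0.06), and without replicate 1 the SD was 0.0217. That was the smallest SD of the 46 genes under this scaling, and it depended on it: it rose to 0.249 with the 75th percentile over all probes and to 0.135 with quantile normalization, where Psmc3ip had the smallest, and to 0.163 with the array median, where Psma4 did. Psmd14, the subunit that removes ubiquitin chains, varied by 1.14-fold, and Psmd4, a ubiquitin receptor, by 1.29-fold. Psmd12, with replicates 1 and 2 highest, ranged 1.36-fold, with an SD of 0.122 without replicate 2.

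The chaperones that build the base of the cap had ranges from 1.17-fold to 1.41-fold. Psmd5 read -1.33, -1.11, -1.23 and -0.84 (mean -1.13 ± 0.21, with an SD of 0.12 without replicate 4). Psmd10, which encodes gankyrin, read -3.87, -4.22, -3.80 and -3.81 (mean -3.92 ± 0.20). Psmd10 had replicate 2 low and the others level, and its SD was 0.0432 without replicate 2. Psmd9 read -0.14, 0.07, -0.16 and 0.06 (mean -0.04 ± 0.12). Of the factors that assemble the alpha ring, Psmg2 read -1.99, -1.70, -1.96 and -1.69 (mean -1.84 ± 0.16). Psmg4 read 0.00, 0.48, 0.03 and 0.37 (mean 0.22 ± 0.24) and was also highest on replicates 2 and 4, while its other probe was detected on none of the arrays.

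The regulators that dock at the barrel's ends split in direction. Psme3, which encodes the gamma form of PA28 found in the nucleus, read -0.67, -0.37, -0.68 and -0.13 (mean -0.46 ± 0.26). Psme4, which encodes the PA200 activator, read -2.41, -3.50, -2.53 and -3.71 (mean -3.03 ± 0.66). It was 2.46-fold higher on replicate 1 than on replicate 4, with replicates 1 and 3 high and no overlap with the others. Psmf1, the PI31 regulator first known as an inhibitor, read -0.22, 0.34, -0.16 and 0.60 (mean 0.14 ± 0.39). A further 2 genes carried a matching symbol without being subunits. Psmc3ip, a cofactor of meiotic recombination, read -2.72, -3.06, -2.67 and -2.99 (mean -2.86 ± 0.19), and Psme3ip1, which encodes a partner of PA28 gamma, read -2.23, -1.80, -2.21 and -1.69 (mean -1.98 ± 0.28).

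Counted over all members, most genes shared 1 order of cultures. Of the 46 detected genes, 37 (80.4%) had replicates 2 and 4 as their 2 highest arrays, against 47.3% of all detected genes. A further 6 genes had replicates 1 and 3 highest, against 34.5% of all detected genes: Psma2, Psma3, Psma4, Psmc3ip, Psmc6 and Psme4. Psma3, Psmc6 and Psme4 kept that order under every scaling tried, whereas Psma2 and Psma4 lost it with the 75th percentile over all probes and with the array median. Psmc3ip lost it with the former and with quantile normalization. Replicates 1 and 2 were highest in 1 gene (Psmd12, background 5.91%), replicates 2 and 3 in 1 (Psmd1, 3.13%), replicates 3 and 4 in 1 (Psmd10, 5.15%) and replicates 1 and 4 in 0 (4.03%). The order moved with brightness: among all genes, replicates 2 and 4 were highest in 27.7% of the dimmest of 4 equal classes, 39.2% and 51.8% of the classes between, and 70.3% of the brightest. Of the 33 members in the brightest class, 30 had that order, and of the 13 dimmer members 7 had it. The part of brightness in the shared order was not tested beyond these counts. Replicates 2 and 4 also had the smaller shares of spots above background, and the part of that in the order was not tested.

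**Figure D4:**
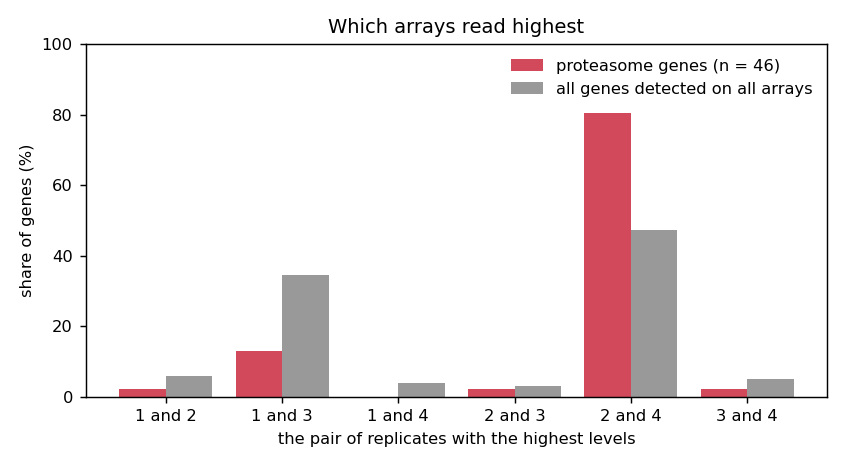
Share of genes whose 2 highest arrays were each possible pair of replicates, for the 46 detected proteasome genes and for all 7935 genes detected on all arrays. The share with replicates 2 and 4 highest is 80.4% of the proteasome genes and 47.3% of all genes.

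How the size of the differences compared with the whole array depended on the scaling. The median SD over the 46 genes was 0.27, against 0.23 over all detected genes, and with the 75th percentile over all probes it was 0.462 against 0.353. A range above 1.5-fold was found in 19 of the 46 genes, beside 37.9% of all detected genes. With the 75th percentile over all probes it was found in 40, beside 62.7%, and with quantile normalization in 12, beside 42.4%. A range above 2-fold was found in 4 genes, Psma3, Psmb5, Psmc6 and Psme4, against a background of 13.6%; Psmb5, at 2.00-fold, lay just inside that threshold and Psmb3, at 1.86-fold, just outside. Between replicates 1 and 3, 0 members differed by more than 1.5-fold (background 1.16% higher and 0.744% lower on replicate 3), and between replicates 2 and 4 it was Psmc3 alone, lower on replicate 4 (background 2.34%, and 1.63% in the other direction). On replicate 2, 10 members were over 1.5-fold higher than on replicate 1, a direction that 7.47% of all detected genes took, and 3 were over 1.5-fold lower, against 17.5%. On replicate 4, 12 members were over 1.5-fold higher than on replicate 1, against 10.5%, and 3 were lower, against 17.9%. From replicate 2 to 3, 3 members were higher (17.5%) and 12 lower (8.14%), and from replicate 3 to 4, 11 were higher (10.2%) and 3 lower (17.9%).

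Repeated spots show the technical scatter within an array, and nothing of the variation between hybridizations or cultures. For the 10 members printed 2 or 10 times on each array, the median SD among repeated spots on the same array was 0.0415. The SD between arrays was 1.75 to 30.6 times the spot SD of the same gene, with Psma4 lowest and Psmb3 highest. Both were printed 2 times, so their spot SDs rest on few values. The 4 genes printed 10 times gave 7.35 (Psma7) to 10.7 (Psme1). The SD between arrays is that of levels averaged over spots, and the spot SD is that of single spots. Psme1 and Psme2, each printed 10 times, had spot SDs of 0.0387 and 0.0358.

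Genes that work with the proteasome gave a mixed picture. Of 24 partner and ubiquitin genes listed, 19 had a named probe and all 19 were detected on all arrays; 12 of them had replicates 2 and 4 highest (47.3% of all detected genes) and 5 had replicates 1 and 3 (34.5%). Ube3a, a ubiquitin ligase that associates with the cap, read -0.88, -3.08, -0.89 and -2.89, a 4.60-fold range. Uba1, the main enzyme that activates ubiquitin, read 2.73, 3.34, 2.75 and 3.42. Sem1, the smallest cap subunit, whose symbol lies outside the naming rule, read 3.17, 2.66, 3.23 and 2.55, so it sided with Psma3 and Psmc6. Ubb, which encodes ubiquitin, was highest on replicates 2 and 4, and Rps27a, which encodes ubiquitin fused to a ribosomal protein, on replicates 1 and 3.

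Of the 9 genes listed for the control of proteasome genes by NRF1, 7 were detected on all arrays, Ddi2 on none, and Nfe2l1, which encodes NRF1 itself, had no named probe. In 0 of the 7 were replicates 2 and 4 highest, and in 3 replicates 1 and 3 were, beside 47.3% and 34.5% of all detected genes. Nfe2l2, which encodes NRF2, read 1.03, 1.01, 0.96 and 1.09, a range of 1.1-fold. Syvn1, a ubiquitin ligase of the endoplasmic reticulum, had the largest SD of this list (0.31).

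All 14 measured genes of class I antigen processing and its control were detected on all arrays. Of these, 8 had replicates 2 and 4 highest, beside 47.3% of all detected genes, and 3 had replicates 1 and 3 highest, beside 34.5%. Tapbpl, a peptide editor related to tapasin, read -4.75, -3.55, -4.69 and -3.28 (2.76-fold range), and Tapbp, which encodes tapasin, read -1.65, -0.74, -1.55 and -0.69 (1.95-fold). Calr, a chaperone of class I assembly, ranged 1.81-fold. Canx, also on this list, had replicates 1 and 3 highest (1.35, 0.71, 1.30 and 0.63) and ranged 1.65-fold. In contrast, B2m, the light chain of class I molecules, ranged 1.05-fold. Irf1, an interferon-inducible factor, read -0.53, -0.28, -0.57 and -0.21. The macrophage gene Ptprc took the opposite order to the immunoproteasome genes (2.16, 0.77, 2.11 and 0.81), and 7 of the 12 detected macrophage markers had replicates 2 and 4 highest, again beside 47.3%. The summed macrophage marker signal ran from 7.52 to 7.81 over the arrays on the log2 scale, and that of the lymphocyte markers from -3.37 to -1.98, highest on replicate 4. The part of these shifts in the results above was not tested.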

How the data were processed

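Total RNA from 4 exposed cultures was measured on 1-colour Agilent arrays. Per the submitters' processing notes, Agilent Feature Extraction (version 11.0.1.1) produced the deposited intensity values. Background subtraction and spatial detrending had been applied to the deposited intensity on every array separately, per the file headers, and nothing adjusts one array to another. Outlier spots (623 to 1016 per array) were left out and spots of a probe averaged as log2. Probes were named through the accessions of the RefSeq table of GRCr8 (21109 of 45598 non-control probes matched 1 symbol). A probe was detected where over 50% of its spots were well above background. Because 34.2% of probes were detected on all arrays, the 75th percentile of those probes scaled each array. A gene took its brightest probe. No test was run, since there was 1 group. Values on every array are given for the immunoproteasome genes, their counterparts, Psme3, Psme4 and Psmf1, the 2 widest and the steadiest gene of each role, and genes above 2-fold or undetected; other genes named were chosen after their values were seen, apart from genes of the fixed lists. Members and lists were chosen with earlier results of these data known. Alternatives covered scaling, quantile normalization, normexp (limma 3.58.1, offset 50, run on median spot signals), probe averaging, detection, outlier spots and each replicate left out. Spread calculations were tested on simulated data.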

Additional observations from a re-analysis of the deposited data

Results flagged for a closer look

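Among 47 genes checked for an array far from the others, 1 stood out. For Psma8, replicate 3 gave -6.47 while the lowest and highest of the remaining cultures gave -7.81 and -7.72, a gap of 0.936 of the whole range. The gene was detected on none of the arrays, and its SD was 0.0438 without replicate 3. Chance alone sets off this check in about 1 of 20 genes.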

How the results depend on the processing

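No paired analysis was possible because there is 1 group. The count of 46 detected genes was the same with outlier spots kept. Letting 1 spot above background suffice, or leaving out a replicate, could not lower that count. Neither could add Psma8, which had 1 spot and was detected on none of the arrays, so those settings do not check the count. Scaling mattered most. With the 75th percentile over all non-control probes, the median SD was 0.462 (0.353 over all detected genes), 40 genes had a range above 1.5-fold (62.7% of all), 13 had one above 2-fold (18.5%), and 3 genes (Psma3, Psmc6 and Psme4) had replicates 1 and 3 highest (19.0%), none of which exceeded 2-fold. With the array median these ranges gave 31 genes (51.9%) and 9 genes (13%), and with quantile normalization 12 (42.4%) and 2 (13.3%). These 3 settings moved the median deviation of all detected genes by up to 0.199, 0.111 and 0.0635 on an array. The count with replicates 2 and 4 highest ran from 33 to 41 over all settings, and its background from 43.4% to 69.9%, so the distance between them is set partly by scaling. The inducible minus standard difference kept its sign on each array in every setting, from -0.26 to -0.14 on replicate 1, 0.13 to 0.26 on replicate 2, -0.24 to -0.11 on replicate 3 and 0.11 to 0.25 on replicate 4. Leaving out 1 array recentres it on the other 3: without replicate 1 it was 0.13 on replicate 2 and 0.11 on replicate 4, and on replicate 3 it was -0.11 without replicate 2 or 4. Without each replicate, 16 to 17 genes exceeded 1.5-fold and 3 to 4 exceeded 2-fold; Psmb5 was not above 2-fold without replicate 2 or 3. With outlier spots kept, Psme1 exceeded 2-fold too.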

Other observations

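Besides Psmb8, Psmb10 and Psme2, the interferon element's letters stood in the promoter windows of Psma4, Psmb3, Psmd7 and Psmg4. Of these, Psmb3, Psmd7 and Psmg4 had replicates 2 and 4 highest, and Psma4 had replicates 1 and 3. Replicates 2 and 4 were highest in 47.3% of all detected genes and in 70.3% of the brightest class, where these genes lie.

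The RefSeq table names 46 pseudogene copies for 19 of the 47 measured genes, with 7 for Psmb3 and 5 for Psma6, and 2 each for Psma3 and Psmc6. Probe sequences were not used here, so whether a probe also reads a copy was not tested.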
